A study of Homo sapiens with 24 samples.

Results

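The OAS family (OAS1, OAS2, OAS3 and OASL) was followed across 8 groups of U937 libraries, a human myeloid leukaemia cell line grown in suspension. Its members were the 4 rows of the gene table named for these genes, of 55773 gene names in all, and all 4 were among the 20147 genes with enough reads to be tested. The study asked how loss of histone H3 lysine 9 methylation affects the interferon pathway, by its title, and it had 3 libraries in each group. In the inhibitor arm, cells received DMSO, the solvent control, or UNC0638, an inhibitor of the methyltransferases G9a and GLP, at 2 or 4 µM, and the UNC0638 cells were harvested after 3 days. In the knockdown arm, cells carried lentiviral short hairpins: a scrambled control, 2 hairpins against G9a (hairpins 2 and 3, the gene EHMT2), and 2 hairpins against SUV39H1 (hairpins 2 and 4), with 3 days of puromycin selection for the G9a and SUV39H1 hairpins. When the DMSO cells were harvested, and whether the scrambled cells were selected, is not in the labels. All groups shared the parental line and its medium (RPMI with serum and antibiotics). The groups model 1 cell line in culture, a hairpin lowers a transcript without deleting the gene, and the drug can act on both G9a and GLP. The labels do not say whether replicates were separate cultures, so the p-values below measure only the spread between these libraries.

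OAS1, OAS2 and OAS3 are enzymes that sense double-stranded RNA and link ATP into short chains of adenylate joined 2' to 5', called 2-5A. 2-5A sets off the cutting of single-stranded RNA of virus and cell, which halts viral growth and translation. OASL belongs to the same family but does not make 2-5A: it binds double-stranded RNA, carries ubiquitin-like domains and strengthens signalling through the RNA sensor RIG-I. The 4 genes are interferon-stimulated genes, switched on through the ISGF3 complex, which includes STAT2 and IRF9, and they are low in most resting cells.

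OAS1, OAS3 and OAS2 form 1 cluster on chromosome 12, in that order and on the + strand, and OASL lies apart on the same chromosome on the - strand. On hg19, the build of the deposited table, OAS1 spans chr12:113344582-113369990, OAS3 chr12:113376157-113411054, OAS2 chr12:113416200-113449528 and OASL chr12:121458095-121477045. OAS1 ends 6166 bases before OAS3 starts, and OAS3 ends 5145 bases before OAS2 starts. The longest coding sequences in GENCODE v29 hold 414 codons for OAS1, 726 for OAS2, 1087 for OAS3 and 514 for OASL, an order that follows the OAS units in the proteins (1 in OAS1, 2 in OAS2 and 3 in OAS3).

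The promoters of OAS1 and OAS3, neighbours in the cluster, are shown because these 2 of the 4 members were matched in the RefSeq promoter table. They were searched for patterns that interferon-activated factors are known to bind. The 250 bases before each RefSeq start (GRCh38.p14, + strand) are chr12:112906712-112906961 for OAS1 and chr12:112938224-112938473 for OAS3, read 5' to 3'. Capitals mark pairs of GAAA with 1 base between them (GAAANGAAA) or with 2 bases between them, as in sites for ISGF3 and IRF proteins. These 2 motifs and TTCNNNGAA, the pattern bound by STAT dimers, were searched on both strands and were chosen after the sequences had been seen.
OAS1: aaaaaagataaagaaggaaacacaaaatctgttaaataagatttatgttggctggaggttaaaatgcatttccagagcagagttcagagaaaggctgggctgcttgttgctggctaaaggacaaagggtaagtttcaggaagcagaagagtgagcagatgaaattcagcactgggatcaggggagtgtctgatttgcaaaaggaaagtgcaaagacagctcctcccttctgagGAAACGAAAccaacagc
OAS3: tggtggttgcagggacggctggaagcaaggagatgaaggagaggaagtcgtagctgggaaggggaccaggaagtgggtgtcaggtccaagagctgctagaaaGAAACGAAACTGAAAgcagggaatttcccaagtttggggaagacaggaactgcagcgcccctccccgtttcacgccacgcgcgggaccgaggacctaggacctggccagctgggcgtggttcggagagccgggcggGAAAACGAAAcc
OAS1 holds 1 match to GAAANGAAA, at 17 to 9 bases before the start, and 1 to TTCNNNGAA, at 168 to 160 (not in capitals). OAS3 holds GAAANGAAA at 148 to 140 bases before the start, overlapping a pair with 2 bases between at 143 to 134, and a second pair with 2 bases between at 12 to 3. Of the 35116 promoters of this length, 2.69% hold GAAANGAAA, 3.02% a pair with 2 bases between, 5.48% either of these and 6.57% TTCNNNGAA, and 0.225% hold 2 or more pairs with 2 bases between. A match describes these letters and is not a site of binding. GENCODE v29 starts of 3 of 5 OAS1 transcripts and 3 of 3 OAS3 transcripts lie inside these windows, up to 185 and 122 bases before the RefSeq start. Promoters of OAS2 and OASL were not searched.

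Library totals ran from 31545854 to 53803704 counts. EHMT2 was at 69.3 to 75.6 CPM (a gene's count scaled to 1000000 gene counts of its library) in the 6 G9a hairpin libraries and at 110 or more elsewhere. SUV39H1 was at 18.8 to 24.5 CPM in the 6 SUV39H1 hairpin libraries and at 47.8 or more elsewhere, so the targeted genes matched the labels. Of 10 markers of U937 cells, 9 had a median above 1 CPM, MPO being the exception at 0.872, and of 11 markers of other cell types measured, 9 had a median under 0.1 CPM. Changes are log2 fold changes from edgeR's quasi-likelihood test over all 24 libraries, with the standard error (SE) and the Benjamini-Hochberg adjusted p over all genes tested, called at 0.05. EHMT2 was also lower than in scrambled cells with SUV39H1 hairpin 2, at -0.41 ± 0.06, and with SUV39H1 hairpin 4, at -0.16 ± 0.06 (edgeR's quasi-likelihood test, adjusted p = 3.8e-06 and 0.030). In bulk RNA, fewer cells of a kind and less RNA per cell cannot be told apart.

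Per kilobase of gene, OAS3 was the most abundant family transcript in every group, followed by OAS1, OASL and OAS2. In DMSO cells OAS3 stood at 11.2 ± 0.744 CPM per kb (SD, n = 3), OAS1 at 4.17 ± 0.254, OASL at 2.30 ± 0.179 and OAS2 at 0.0713 ± 0.0183. OAS2 had few reads at rest, 55 counts in the 3 DMSO libraries together. Across groups, each gene was highest with SUV39H1 hairpin 2 and next highest at 4 µM UNC0638. The order then ran, for OAS1, OAS3 and OASL, through SUV39H1 hairpin 4 and 2 µM UNC0638 to DMSO. For OAS2, 2 µM UNC0638 stood above SUV39H1 hairpin 4, and their libraries did not overlap. DMSO and scrambled libraries overlapped for OAS2 alone. The libraries of the 2 G9a hairpins overlapped for every member, and those of scrambled and G9a hairpin 3 overlapped for OAS3.

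**Figure D1:**
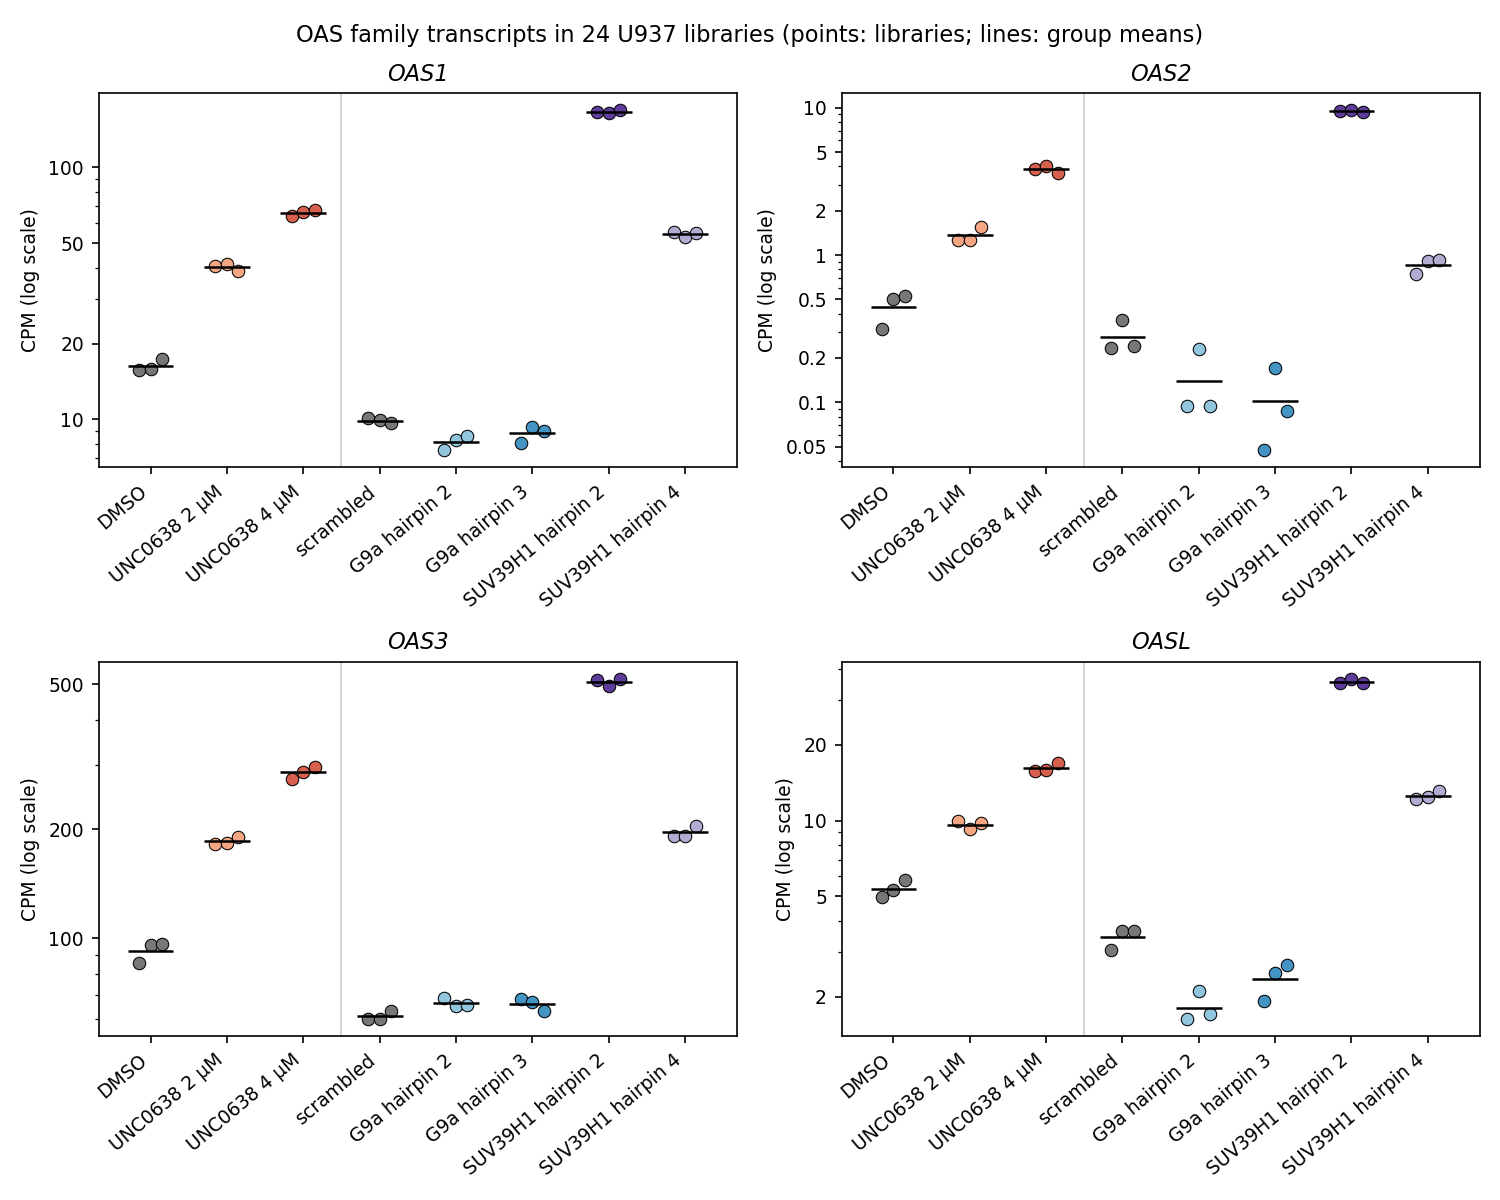
Levels of the 4 genes in CPM (log scale) in each of 24 libraries, with 1 point per library, a line at each group mean and the inhibitor arm left of the grey line. SUV39H1 hairpin 2 gave the highest level of each gene, up to 518 CPM for OAS3, and the 6 G9a hairpin libraries lay below the scrambled ones for OAS1, OAS2 and OASL.

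With UNC0638, all 4 genes rose at both doses and rose further from 2 to 4 µM. OAS1 was at 15.6, 15.8 and 17.4 CPM in DMSO cells, at 40.5, 41.2 and 38.9 at 2 µM and at 63.9, 66.7 and 67.5 at 4 µM. The 3 groups did not overlap, and the fold change over DMSO was 2.46 at 2 µM and 4.06 at 4 µM (log2 2.02 ± 0.05, edgeR's quasi-likelihood test, adjusted p = 3.6e-20). OAS2 was at 0.315, 0.502 and 0.523 CPM in DMSO, 1.26, 1.26 and 1.56 at 2 µM, and 3.85, 4.02 and 3.59 at 4 µM. It had the lowest level and the largest fold change of the family, 3.08 at 2 µM and 8.61 at 4 µM (log2 3.11 ± 0.16, edgeR's quasi-likelihood test, adjusted p = 4.7e-14). OAS3, the most abundant, was at 85.5, 95.9 and 96.4 CPM in DMSO, 182, 183 and 190 at 2 µM, and 275, 286 and 297 at 4 µM. Again no libraries overlapped between the groups, and the 4 µM fold change was 3.11 (log2 1.64 ± 0.05, edgeR's quasi-likelihood test, adjusted p = 1.2e-19). OASL, the member without synthetase activity, was at 4.99, 5.31 and 5.82 CPM in DMSO, 9.92, 9.26 and 9.75 at 2 µM, and 15.8, 15.8 and 17.0 at 4 µM. Its fold change was 1.79 at 2 µM and 3.02 at 4 µM (log2 1.60 ± 0.08, edgeR's quasi-likelihood test, adjusted p = 8.1e-15).

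Of all genes tested, 3.83% were called higher at 2 µM and 10.2% at 4 µM, against 4 of 4 OAS genes at each dose. The members' median log2 change at 4 µM was 1.83, and over all genes tested it was -0.0059. From 2 to 4 µM the log2 changes were 0.73 ± 0.05 for OAS1, 1.48 ± 0.13 for OAS2, 0.64 ± 0.04 for OAS3 and 0.76 ± 0.07 for OASL. All 4 were called there (edgeR's quasi-likelihood test, largest adjusted p = 3.4e-08), where 1.39% of all genes were called higher. In CPM, the rise at 2 µM came to 48.0% of the rise at 4 µM for OAS1 and 47.7% for OAS3, 39.5% for OASL and 27.0% for OAS2. So OAS1 and OAS3 had reached nearly the same part of the 4 µM rise, and OAS2 the least.

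With the SUV39H1 hairpins, all 4 genes rose with each hairpin, and hairpin 2 gave much larger changes than hairpin 4. OAS1 went from 10.1, 9.92 and 9.64 CPM in scrambled cells to 165, 165 and 168 with hairpin 2 and 55.4, 52.7 and 54.7 with hairpin 4. The 3 groups lay far apart, with fold changes of 15.8 and 5.02 (log2 3.98 ± 0.06 and 2.33 ± 0.06, edgeR's quasi-likelihood test, adjusted p = 1.5e-26 and 2.6e-21). OAS2 was at 0.234, 0.364 and 0.239 CPM in scrambled cells, at 9.43, 9.57 and 9.30 with hairpin 2 and at 0.743, 0.906 and 0.930 with hairpin 4. With hairpin 2 it had the largest fold change of the family, 30.5, and with hairpin 4 the smallest, 2.69 (log2 4.93 ± 0.15 and 1.43 ± 0.24, edgeR's quasi-likelihood test, adjusted p = 5.3e-20 and 1.1e-05). OAS3 was at 60.0, 60.0 and 63.3 CPM in scrambled cells, at 514, 495 and 518 with hairpin 2 and at 192, 192 and 203 with hairpin 4. Its fold changes were 7.82 and 2.93 (log2 2.97 ± 0.05 and 1.55 ± 0.05, edgeR's quasi-likelihood test, adjusted p = 1.0e-25 and 1.7e-19), from the highest levels of any member, 509 ± 12.2 CPM with hairpin 2 (SD, n = 3). OASL was at 3.07, 3.66 and 3.66 CPM in scrambled cells, at 35.0, 36.4 and 35.1 with hairpin 2 and at 12.2, 12.4 and 13.1 with hairpin 4. Its fold changes were 9.53 and 3.28 (log2 3.25 ± 0.08 and 1.71 ± 0.08, edgeR's quasi-likelihood test, adjusted p = 2.1e-22 and 2.4e-15).

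These hairpins changed much of the transcriptome: 34.5% of all genes tested were called higher with hairpin 2 and 31.8% with hairpin 4, against 4 of 4 members with each. The members' median log2 change was 3.62 with hairpin 2 and 1.63 with hairpin 4, beside 0.020 and 0.031 over all genes. Between the hairpins, hairpin 4 was lower by log2 values of -1.65 ± 0.05 for OAS1, -1.42 ± 0.05 for OAS3, -1.54 ± 0.06 for OASL and -3.50 ± 0.12 for OAS2, all 4 called (edgeR's quasi-likelihood test, largest adjusted p = 1.4e-16) where 20.9% of all genes were called lower. Only 1 of the 20147 genes tested had a lower value than OAS2 in that contrast. In CPM, the rise with hairpin 4 came to 28.4% of that with hairpin 2 for OAS1, 30.1% for OAS3 and 28.3% for OASL, and to 6.34% for OAS2. SUV39H1 itself was at 19.3 ± 0.404 CPM with hairpin 2 and 22.4 ± 1.85 with hairpin 4 (SD, n = 3), against 56.5 ± 1.52 in scrambled cells. The summed level of the 10 U937 markers also moved with these groups, from 1312 to 1318 CPM in scrambled cells to 4100 to 4169 with hairpin 2 and 2614 to 2631 with hairpin 4, with none at 0. The sum does not stand for each marker. LYZ, the marker with the highest median, ran from 265 to 2594 CPM over all libraries. SPI1 ran from 120 to 168, CD33 from 85.1 to 121 and CEBPA from 123 to 178. The 11 markers of other cell types summed to 4.03 to 4.45 CPM in scrambled cells, 5.55 to 5.94 with hairpin 2 and 6.38 to 6.78 with hairpin 4. Their part in the rise was not tested. In the UNC0638 arm the U937 marker sum was 1255 to 1276 CPM with DMSO, 1232 to 1242 at 2 µM and 1242 to 1296 at 4 µM. The markers of other cell types summed there to 7.21 to 7.95 CPM with DMSO, 6.58 to 7.38 at 2 µM and 5.97 to 6.44 at 4 µM, the last below the DMSO libraries without overlap, and their part in the UNC0638 changes was not tested.

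**Figure D2:**
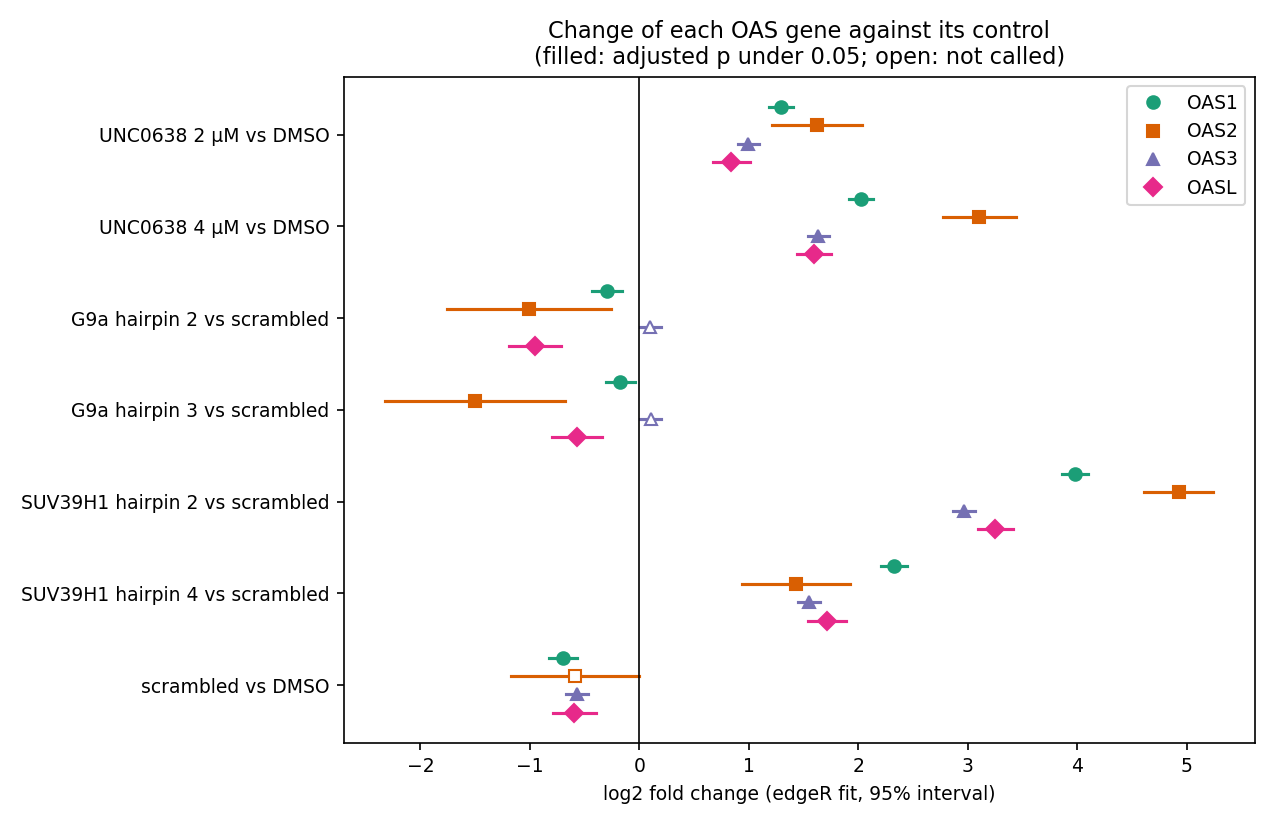
log2 fold changes of the 4 genes against each arm's control (x axis), with 95% intervals calculated from the F value of the edgeR test, filled where the adjusted p was under 0.05. OAS2 stood at 3.11 at 4 µM and 4.93 with SUV39H1 hairpin 2, and OAS1, OAS2 and OASL lay left of 0 with both G9a hairpins.

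With the G9a hairpins OAS1, OAS2 and OASL fell, and OAS3 differed from scrambled by little. OASL fell most clearly, from 3.07, 3.66 and 3.66 CPM in scrambled cells to 1.63, 2.10 and 1.70 with hairpin 2 and 1.93, 2.48 and 2.69 with hairpin 3. All 6 libraries lay below the scrambled ones, and the mean change of the 2 hairpins was -0.76 ± 0.10 (edgeR's quasi-likelihood test, adjusted p = 2.8e-07). OAS1 was at 7.53, 8.30 and 8.61 CPM with hairpin 2 and 8.05, 9.36 and 9.04 with hairpin 3, against 9.64 to 10.1 in scrambled cells. The mean change was small, -0.23 ± 0.06 (edgeR's quasi-likelihood test, adjusted p = 0.0011). OAS2 was at 0.0947, 0.231 and 0.0946 CPM with hairpin 2 and 0.0471, 0.172 and 0.0873 with hairpin 3. These are 19 and 13 counts over 3 libraries each, with exact 95% Poisson intervals of 11.4 to 29.7 and 6.92 to 22.2 that cover counting error only, against 37 (26.1 to 51.0) in scrambled cells. The mean change of OAS2 was -1.25 ± 0.32 (edgeR's quasi-likelihood test, adjusted p = 0.0021). With the scrambled and G9a libraries alone, OAS2 had too few reads to be tested. It was tested here because other groups, with higher levels of OAS2, entered the choice of genes. OAS3 was at 68.6, 65.0 and 65.7 CPM with hairpin 2 and 68.0, 66.9 and 63.2 with hairpin 3, against 60.0 to 63.3 in scrambled cells. The hairpin 2 libraries lay above the scrambled ones and the lowest hairpin 3 library lay among them. Its mean change was 0.10 ± 0.04 (edgeR's quasi-likelihood test, adjusted p = 0.042), and neither hairpin alone was called (adjusted p = 0.087 and 0.081).

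Of all genes tested, 24.9% were called lower and 25.0% higher over the mean of the G9a hairpins. Of the members, OAS1 and OASL were called lower there and OAS3 higher. OAS2, also called lower, is not set beside these shares, since it was tested only because of its higher levels in other groups. OAS1 and OASL were called lower with each hairpin alone too (edgeR's quasi-likelihood test), where 22.3% of all genes were lower for hairpin 2 and 22.1% for hairpin 3. The U937 marker sum was 1764 to 1793 CPM with G9a hairpin 2 and 1799 to 1833 with hairpin 3, above the 1312 to 1318 of scrambled cells. The markers of other cell types summed to 3.77 to 4.33 and 3.90 to 4.36 CPM, overlapping the scrambled libraries, and the part of either in the G9a changes was not tested. The share of genes called in each direction is large. The members' median of -0.50, which includes OAS2, stood beside 0.0062 over all genes. Between hairpins 2 and 3, edgeR's quasi-likelihood test and DESeq2 each called 0 of 4 members, where 0.00993% of all genes were called by edgeR. The 95% interval of the difference was narrowest for OAS3, -0.096 to 0.099, and widest for OAS2, -1.45 to 0.47. OASL, at 0.39 ± 0.12, was the 1 member with an unadjusted p under 0.05 (edgeR's quasi-likelihood test, adjusted p = 1). Several of these calls rested on single libraries. The OAS2 mean change was -0.97 (adjusted p = 0.059, edgeR's quasi-likelihood test) without scrambled replicate 2, and the hairpin 2 change was -0.80, -0.80 and -0.73 without hairpin 2 replicate 1, hairpin 2 replicate 3 or scrambled replicate 2, none of them called (adjusted p = 0.12, 0.12 and 0.22). The hairpin 3 change of OAS1, -0.17 (adjusted p = 0.034), was -0.11, -0.15 and -0.17 and not called without hairpin 3 replicate 1, scrambled replicate 1 or scrambled replicate 2 (edgeR's quasi-likelihood test, adjusted p = 0.23, 0.11 and 0.082). The OAS3 mean change lost its call in 6 of 9 such fits, at 0.090 without hairpin 2 replicate 1, 0.10 without hairpin 2 replicate 3, 0.094 and 0.096 without hairpin 3 replicates 1 and 2, and 0.098 and 0.088 without scrambled replicates 1 and 2. With DESeq2 its change was 0.083 (adjusted p = 0.12).

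Set against each other, the responses to 4 µM UNC0638 and to the G9a hairpins, each over its own control, differed in all 4 genes. The difference of the log2 changes was 2.26 ± 0.08 for OAS1, 4.36 ± 0.39 for OAS2, 1.53 ± 0.06 for OAS3 and 2.36 ± 0.12 for OASL, higher with the drug in each (edgeR's quasi-likelihood test, largest adjusted p = 1.4e-09). Of all genes tested, 22.5% had a higher response to the drug. Against the mean response to the SUV39H1 hairpins, the 4 µM response was smaller by -1.13 ± 0.07 for OAS1, -0.62 ± 0.06 for OAS3 and -0.89 ± 0.11 for OASL (edgeR's quasi-likelihood test, largest adjusted p = 1.4e-07), where 29.6% of all genes were lower. For OAS2 the difference was -0.07 with a 95% interval of -0.68 to 0.53, not called. That mean joins 2 hairpins of unequal response, and for OAS2 and OAS3 the 4 µM value lay between them. OAS2 was at 3.11 with the drug, 4.93 with hairpin 2 and 1.43 with hairpin 4, and OAS3 at 1.64, 2.97 and 1.55. OAS1 at 2.02 and OASL at 1.60 lay below both hairpins (3.98 and 2.33, and 3.25 and 1.71). The drug was not tested against each hairpin alone. The G9a hairpins stood below the SUV39H1 hairpins in all 4 genes, by -3.39 ± 0.04 for OAS1, -4.43 ± 0.18 for OAS2, -2.16 ± 0.03 for OAS3 and -3.24 ± 0.06 for OASL (edgeR's quasi-likelihood test, largest adjusted p = 9.9e-18), with 32.6% of all genes lower. These contrasts share libraries with those above. Dose and delivery differ between the arms, and the labels give a harvest time for the UNC0638 cells alone.

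The controls of the arms also differed. Scrambled cells had less OAS1 than DMSO cells (-0.70 ± 0.06), less OAS3 (-0.57 ± 0.05) and less OASL (-0.59 ± 0.10), with no overlap of libraries (edgeR's quasi-likelihood test, largest adjusted p = 2.5e-05). OAS2 had a similar value, -0.59 ± 0.28, that was not called (adjusted p = 0.13), and its libraries overlapped. Without DMSO replicate 1 it was called, at -0.80 (edgeR's quasi-likelihood test, adjusted p = 0.045). Thus 3 of 4 members were lower, against 16.5% of all genes. Harvest, hairpin delivery and selection cannot be told apart in this contrast.

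The make-up of the family, as each gene's share of the summed OAS level per kilobase, differed between the groups. The summed level was 17.8 ± 1.11 CPM per kb in DMSO cells (SD, n = 3), 37.0 ± 0.260 at 2 µM, 59.1 ± 2.01 at 4 µM, 11.5 ± 0.268 in scrambled cells, 10.9 ± 0.0241 and 11.3 ± 0.266 with the G9a hairpins, and 121 ± 1.49 and 43.1 ± 1.16 with SUV39H1 hairpins 2 and 4. OAS3 held 63.2% of it in DMSO cells and 64.6% in scrambled cells, 58.7% at 4 µM, 51.0% and 55.0% with the SUV39H1 hairpins and 73.6% and 70.9% with the G9a hairpins. OAS1 took 23.5% in DMSO and 28.6% at 4 µM, 22.1% in scrambled, and 35.2% and 32.2% with the SUV39H1 hairpins. In the UNC0638 and SUV39H1 groups, OAS1 held a larger share and OAS3 a smaller one than in their controls, with no overlap of libraries. OASL held 12.9% in scrambled cells, 12.6% and 12.4% with the SUV39H1 hairpins, and 7.10% and 8.96% with the G9a hairpins. OAS2 went from 0.398% in DMSO to 1.03% at 4 µM, and from 0.389% in scrambled cells to 1.25% with SUV39H1 hairpin 2 but 0.318% with hairpin 4. The shares were not tested.

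**Figure D3:**
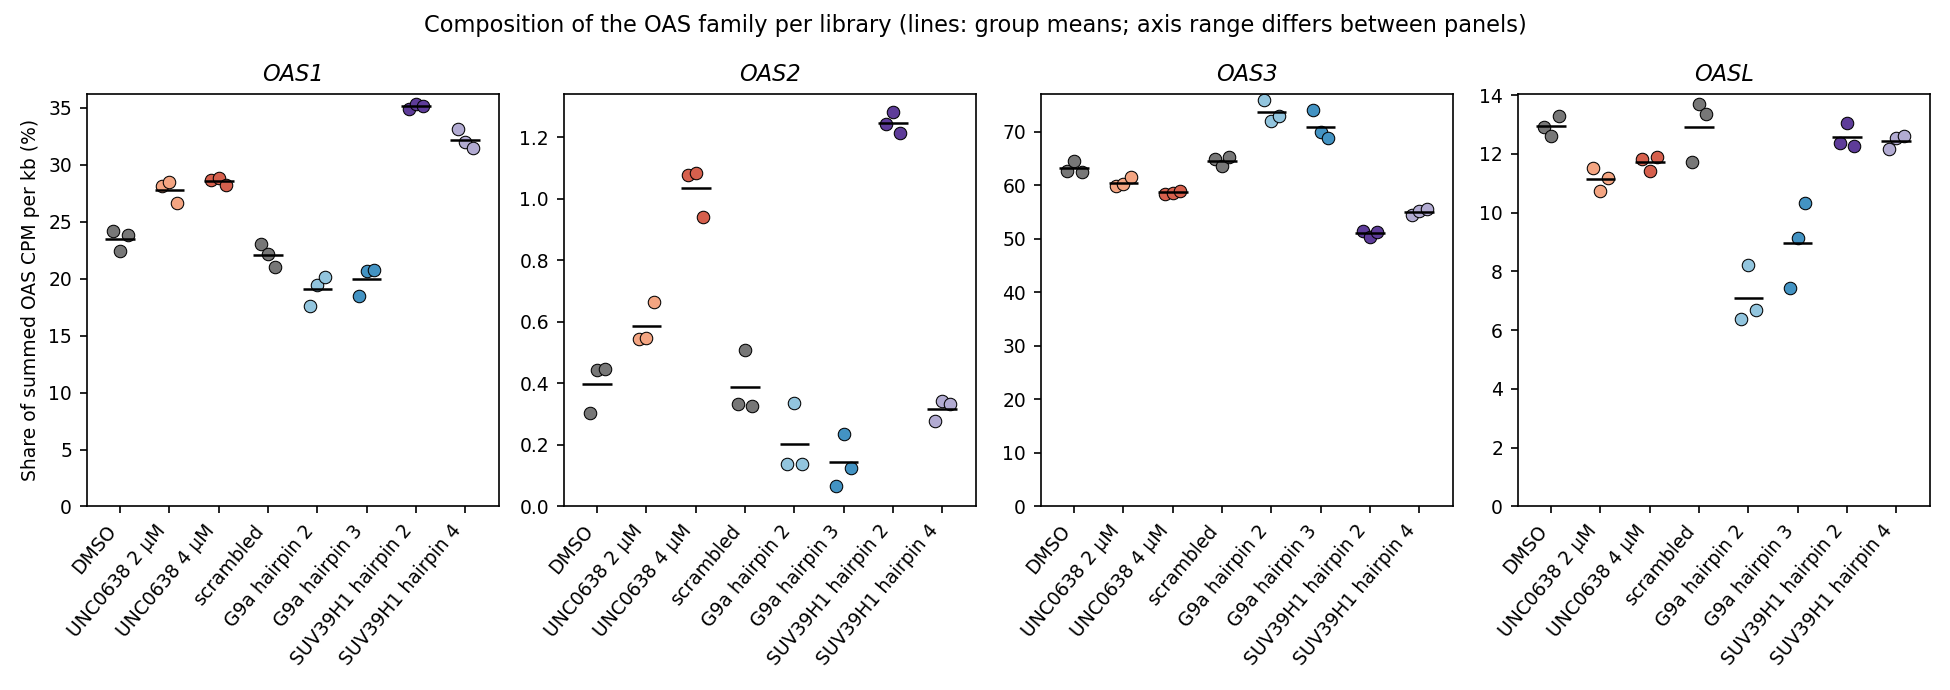
Share of the summed OAS level per kilobase (percent, y axis from 0, range differing between panels) held by each gene in each library, with lines at the group means. OAS3 stood at 51.0% with SUV39H1 hairpin 2 and at 73.6% with G9a hairpin 2.

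ABCE1, an ATPase that recycles ribosomes, fell by 0.31 over the G9a hairpins and by 0.68 over the SUV39H1 hairpins, and PDE12, a phosphodiesterase that degrades 2-5A, fell by 0.16 and 0.36 over the same hairpins (edgeR's quasi-likelihood test, largest adjusted p = 0.00014). Neither ABCE1 nor PDE12 was called with UNC0638, at 0.12 ± 0.07 and 0.03 ± 0.04 for 4 µM.

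ABCE1 and PDE12 belong to a list of 24 genes of the 2-5A pathway, RNA and DNA sensing and interferon signalling, all of which were tested. At 2 µM 11 of the 24 rose and 1 fell, and at 4 µM 11 rose and 2 fell (IRF1 at both doses, TYK2 at 4 µM), with a median log2 change of 0.27 at 4 µM. Of all genes tested, 3.83% rose and 3.34% fell at 2 µM, and 10.2% rose and 9.73% fell at 4 µM. Over the SUV39H1 hairpins 19 of 24 rose and 3 fell (ABCE1, PDE12 and MAVS), with a median of 0.88, where 35.1% of all genes rose and 32.7% fell. Over the G9a hairpins 8 of 24 rose and 9 fell, with a median of -0.015, where 25.0% of all genes rose and 24.9% fell. IRF9, the DNA-binding subunit of ISGF3, rose by 0.73 ± 0.05 at 4 µM and by 2.05 ± 0.05 over the SUV39H1 hairpins and fell by 0.53 over the G9a hairpins. IRF7, a factor that turns on interferon genes, rose by 1.32 ± 0.06 and 2.73 ± 0.06 (edgeR's quasi-likelihood test, largest adjusted p of these 5 changes = 5.4e-09). With the G9a hairpins IRF7 was at -0.12 ± 0.06, not called, and STAT2 rose by 0.43 ± 0.05 (edgeR's quasi-likelihood test, adjusted p = 4.8e-08). STAT2 also rose at 4 µM, by 0.59 ± 0.05 (edgeR's quasi-likelihood test, adjusted p = 3.5e-09). Its mean was 31.9 CPM in scrambled cells, 180 with SUV39H1 hairpin 2 and 98.3 with hairpin 4. The RNA sensors IFIH1 and DDX58 rose by 0.84 ± 0.03 and 1.24 ± 0.06 at 4 µM and fell by 0.13 and 0.29 over the G9a hairpins (edgeR's quasi-likelihood test, largest adjusted p = 0.00098). With SUV39H1 hairpins 2 and 4 IFIH1 averaged 232 and 121 CPM, against 55.4 in scrambled cells. DDX58 averaged 52.1 and 19.5 CPM there, against 8.38. DHX58, a regulator of these sensors, did not fall with the G9a hairpins, at 2.84 and 3.04 CPM against 2.58 in scrambled cells. The upstream receptors IFNAR1 and IFNAR2 and the kinase JAK1 were not called with UNC0638 and rose over the SUV39H1 hairpins, by 0.34 ± 0.04, 0.45 ± 0.03 and 0.42 ± 0.04. Over the G9a hairpins JAK1 rose by 0.31 ± 0.04 and IFNAR2 by 0.10 ± 0.03 (edgeR's quasi-likelihood test, adjusted p = 5.4e-08 and 0.015), and IFNAR1 was at 0.05 ± 0.04, not called. Interferon beta itself, IFNB1, gave 10 counts over the DMSO libraries, 20 at 2 µM, 24 at 4 µM, 12 in scrambled cells, 10 and 8 with the G9a hairpins, and 80 and 29 with SUV39H1 hairpins 2 and 4. It was called with SUV39H1 hairpin 2 (2.81 ± 0.36, edgeR's quasi-likelihood test, adjusted p = 1.5e-07) and not with hairpin 4 (0.95 ± 0.47, adjusted p = 0.082) or at 4 µM (1.07 ± 0.51, adjusted p = 0.15).

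**Figure D4:**
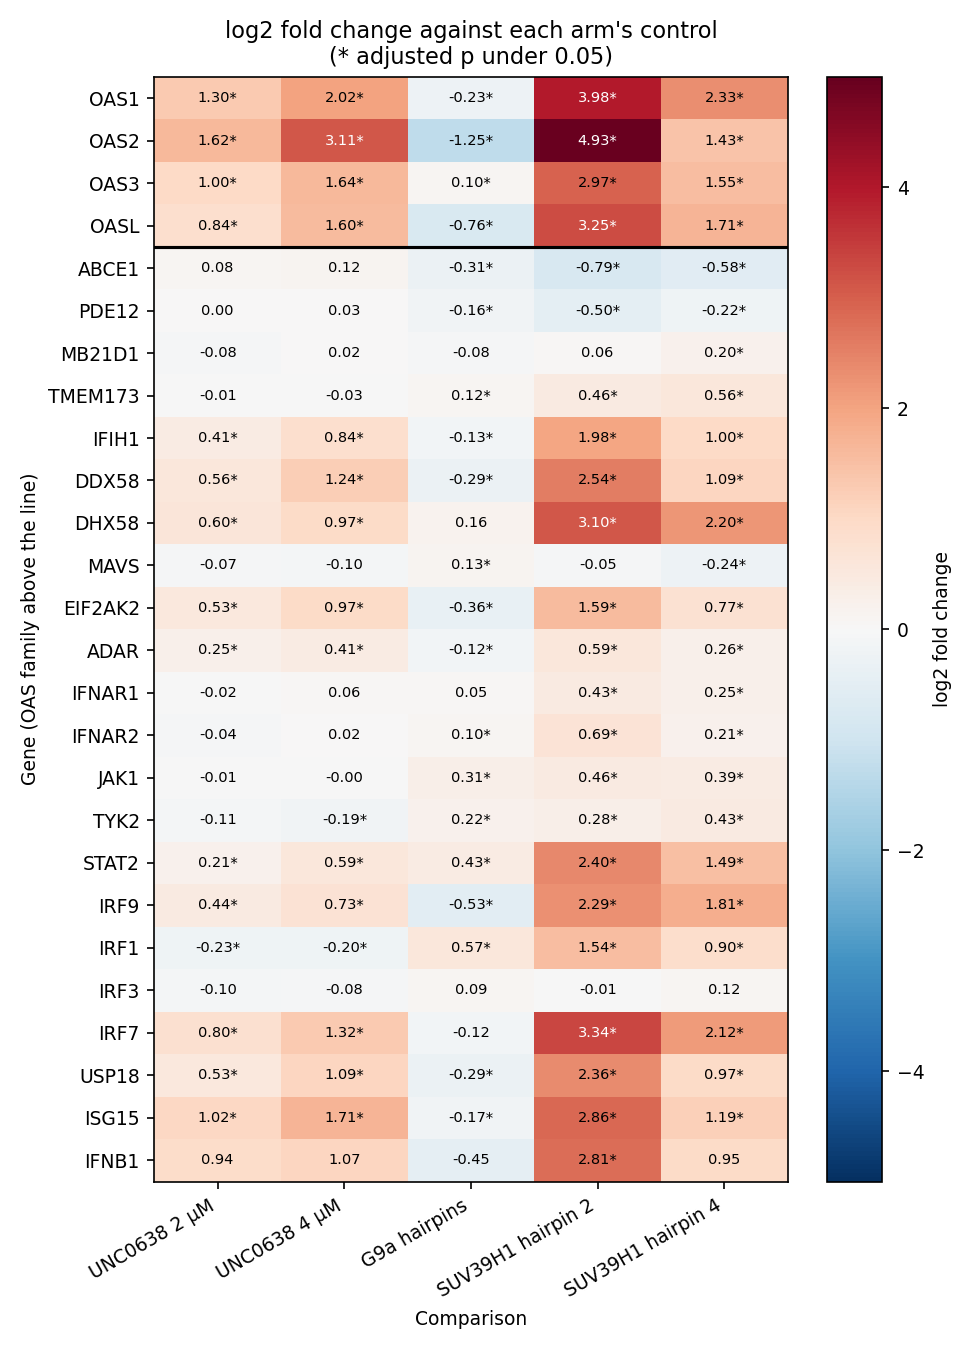
log2 fold changes against each arm's control for the OAS genes (above the line) and 22 of the 24 pathway genes, with an asterisk where the adjusted p was under 0.05. At the UNC0638 doses the 4 OAS genes lay between 0.84 and 3.11, and ABCE1 between 0.08 and 0.12.

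Over the 24 libraries the members varied together, with Pearson correlations of their log2 CPM from 0.957 (OAS1 and OAS2) to 0.990 (OAS1 and OAS3). The genes with the most similar profile were PARP9, an ADP-ribosyltransferase family member, for OAS1 (r = 0.997), the interferon-induced IFIT1 for OAS2 (0.981) and TRIM22 for OASL (0.991). The next genes on each list were HELZ2, IRF7, IFI6 and SAMD9L for OAS1, DDX58, ISG15, SP110 and LAP3 for OAS2, and HELZ2, PARP9, SAMD9L and IFI6 for OASL. Among the 5 most similar to OAS3 were ISG15 (0.990), PARP9, IFIT3 and SAMD9. These are descriptions over libraries that fall into 8 groups and share depth and controls.

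Within 500 kb of the OAS1 to OAS2 cluster lay 22 other names, 14 of them tested, and at 4 µM 1 was higher and 2 were lower (TPCN1 at -0.26 ± 0.06 and SLC8B1 at -0.18 ± 0.06), where 10.2% of all genes were higher and 9.73% lower. The 1 that rose, RP1-71H24.1, is an antisense name spanning the cluster (chr12:113345433-113455556 on hg19, - strand), at 0.899, 1.00 and 0.941 CPM in DMSO cells and 4.07, 3.86 and 4.38 at 4 µM. Its change was 2.13 ± 0.12 at 4 µM and 2.96 ± 0.12 over the SUV39H1 hairpins (edgeR's quasi-likelihood test, adjusted p = 2.1e-13 and 8.5e-18), and -0.18 ± 0.17 over the G9a hairpins, not called. The library kit does not mark strand, so reads at positions shared by this name and the OAS genes cannot be told apart. How many reads lie at such positions was not examined. Around OASL, 23 of 34 other names were tested, and at 4 µM 2 were called, both lower (UNC119B at -0.12 ± 0.04 and KDM2B at -0.13 ± 0.04). Over the SUV39H1 hairpins 4 of 14 neighbours of the cluster rose and 8 fell, and 5 of 23 around OASL rose and 13 fell. Of all genes tested, 35.1% rose and 32.7% fell, and the counts at the loci were not tested against these shares. The risers were RP1-71H24.1, PLBD2 and SDSL beside SDS at the cluster, and CABP1, ACADS, RP11-340F14.5, P2RX7 and P2RX4 at OASL. Among them were SDS, a serine dehydratase, at 2.65 ± 0.25, 380722 bases from the cluster, and P2RX7 and P2RX4, ATP-gated channels, at 1.23 ± 0.06 and 1.07 ± 0.05 near OASL (edgeR's quasi-likelihood test, largest adjusted p = 6.2e-10). These 3 stood at 0.40 ± 0.31, 0.14 ± 0.06 and 0.04 ± 0.05 at 4 µM, not called.

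**Figure D5:**
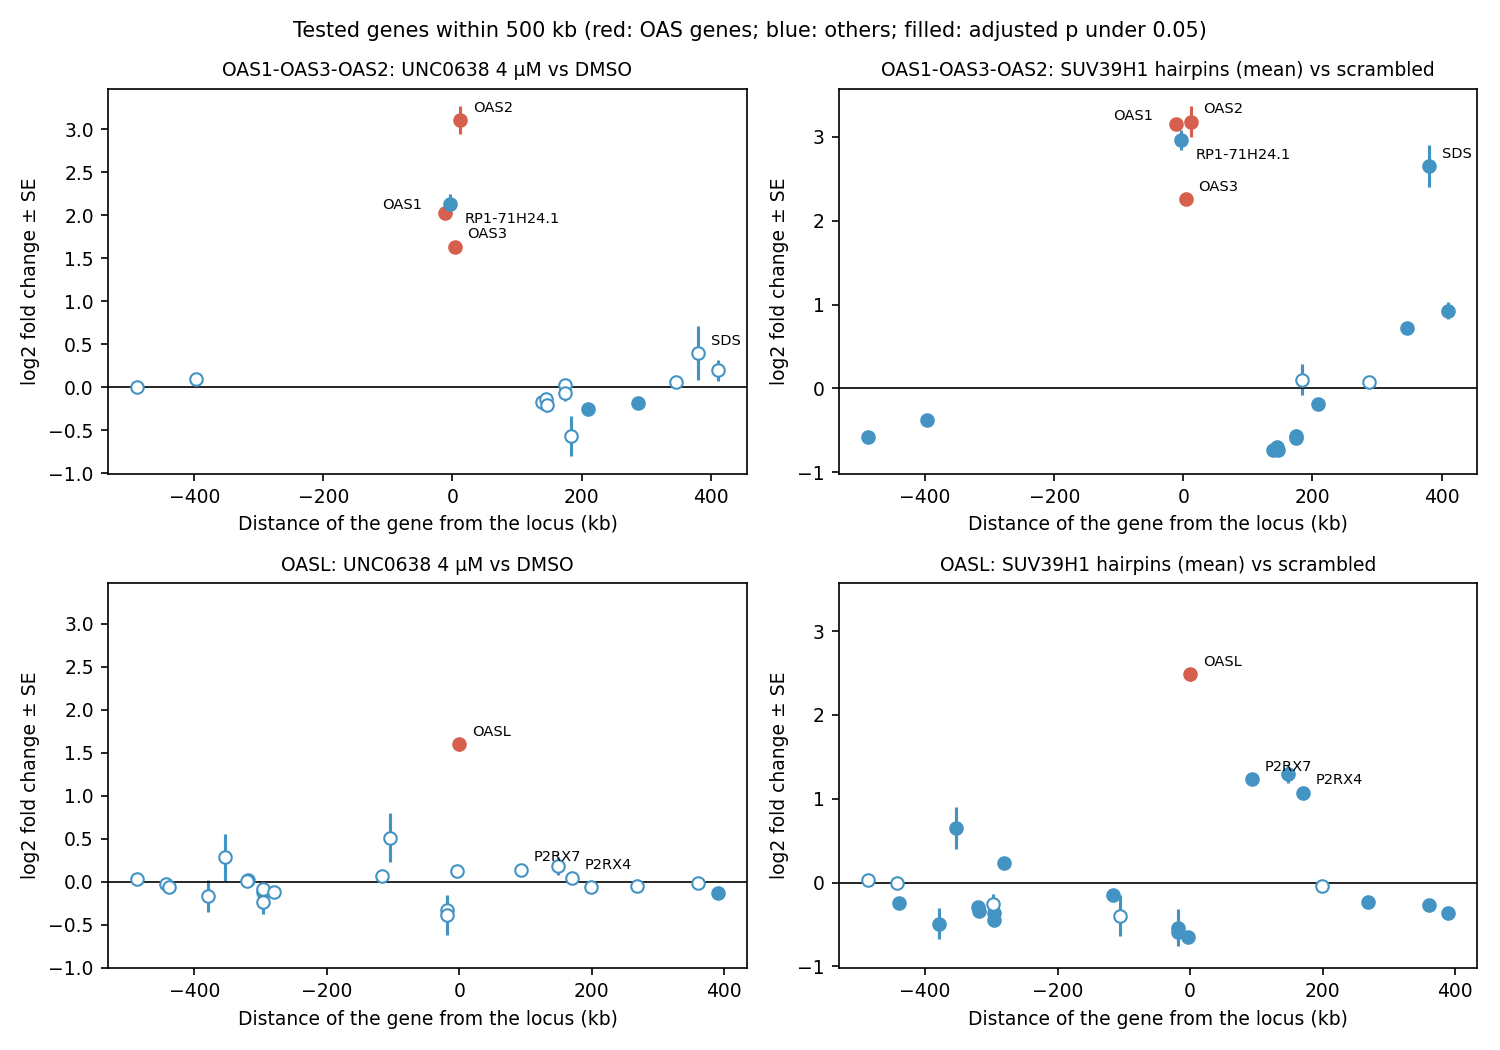
log2 fold changes (points with SE) of tested genes within 500 kb of the OAS cluster (top) and OASL (bottom) by distance in kb, at 4 µM UNC0638 (left) and over the SUV39H1 hairpins (right), filled where the adjusted p was under 0.05; the names at distance 0 are spread sideways for legibility. At 4 µM the OAS genes, at 1.60 to 3.11, and the antisense RP1-71H24.1, at 2.13, stood above the other neighbours.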

How the data were processed

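RNA of U937 cells was sequenced in 24 libraries, prepared by RNeasy extraction with the TruSeq RNA Library Preparation Kit v2, per the labels' protocols; this kit keeps no strand. The authors used STAR, featureCounts and the hg19 build, per the submitters' processing notes. Their versions and settings, and how multiply mapping reads were treated, were not given in the sources used here. For each gene name, the authors' table holds deposited whole-number counts, coordinates and, as another deposited value, a length in bases, which scaled CPM per kilobase. The repeat table was not used here. Groups and replicate numbers came from the labels.

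CPM used each library's total of gene counts, 31545854 to 53803704. In edgeR 4.0.16 (R 4.3.3), filterByExpr (at least 10 counts, 15 in total) chose the genes, which were TMM-scaled and fitted with glmQLFit and glmQLFTest, 1 mean per group over all 24 libraries, with Benjamini-Hochberg adjustment over 20147 genes and a threshold of 0.05. The SE was calculated as the size of the log2 change over the square root of the test's F value. The 95% intervals used this SE and a t distribution. At low counts they can be narrower than the p-value implies. For OAS2 in scrambled against DMSO the interval was -1.17 to -0.0011, beside an unadjusted p of 0.052 (edgeR's quasi-likelihood test). Members, lists and comparisons were chosen with earlier results of these data known. Named genes were the 4 members, the targeted genes, a 24-gene list, tested neighbours within 500 kb and the 5 genes most correlated with each member (log2 CPM, prior count 2). Data were simulated for 20147 genes with the spread taken from the fit itself. In them 50 genes changed at each fold size, far fewer in all than were called for the hairpins here. On these data, the fit called 98%, 98% and 96% of genes changed 4-fold for the 4 µM, G9a and SUV39H1 contrasts. At 2-fold it called 72%, 82% and 82%, and 3.36%, 6.75% and 3.77% of calls were false. Alternatives were RLE scaling, library size alone, no filter, DESeq2 1.42.0, the compared libraries alone, the replicate number as a block and each library left out. Promoters came from RefSeq, with 2 of 4 members matched. Some genes of the lists and of the neighbourhood enter the counts but are not reported here.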

Additional observations from a re-analysis of the deposited data

Results flagged for a closer look

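The responses to UNC0638 and to the hairpins differed between arms in a test of the difference itself (edgeR's quasi-likelihood test over all 24 libraries). The 4 µM response over DMSO exceeded the G9a hairpin response over scrambled by log2 values of 2.26 for OAS1, 4.36 for OAS2, 1.53 for OAS3 and 2.36 for OASL. It was smaller than the mean response to the 2 SUV39H1 hairpins for OAS1 (-1.13), OAS3 (-0.62) and OASL (-0.89), and OAS2, at -0.07, was not called. The 4 µM values of OAS2 and OAS3, 3.11 and 1.64, lay above those with hairpin 4 alone (1.43 and 1.55) and below those with hairpin 2 (4.93 and 2.97), and the drug was not tested against each hairpin alone. The scrambled and DMSO controls differed for OAS1, OAS3 and OASL, and the part of drug, hairpin, time and delivery in these differences cannot be told apart.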

How the results depend on the processing

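Of 836 member values over all settings, 804 kept direction and side of the threshold, and 18 lost a call, 3 gained one and 11 changed sign, each sign change in a value that was not called. All 4 members stayed called and in the same direction in both UNC0638 comparisons, in the dose comparison and with each SUV39H1 hairpin under every alternative run. In what follows the value with all libraries in 1 TMM-scaled fit stands in brackets. With the compared libraries alone the genes called numbered 717 (1444) at 2 µM, 1993 (4012) at 4 µM, 236 (371) between doses and 1 (2) between the G9a hairpins, and with no filter the last was 11. For G9a hairpin 2, OAS3 was called at 0.12 (0.10) with library size alone, giving 1 member higher (0). For G9a hairpin 3, OAS1 was not called at -0.17 with no filter or with the compared libraries alone, and 1 member was lower (3) in the latter, where the filter removed OAS2. With the compared libraries alone, the filter also removed OAS2 for G9a hairpin 2, for both G9a hairpins against scrambled and between these hairpins. Over the G9a hairpins, OAS3 was not called at 0.085 with RLE, 0.11 with no filter and 0.083 with DESeq2, giving 0 members higher (1). Between G9a hairpins OAS3 was -0.0092 with library size alone, -0.0024 with no filter and -0.0021 with the compared libraries alone. Leaving out 1 library at a time gave 995 to 2197 genes called at 2 µM, the highest without DMSO replicate 1, 215 to 276 between doses and 0 to 2 between the G9a hairpins. It gave OAS2 -1.59 to -0.73 for G9a hairpin 2, -1.55 to -0.97 over both, -1.04 to 0.10 between them, -0.87 to -0.41 for scrambled against DMSO and -0.35 to 0.10 for 4 µM minus SUV39H1. OAS1 ranged from -0.22 to -0.11 for hairpin 3, and OAS3 from 0.089 to 0.14 for hairpin 3, 0.088 to 0.12 over both and -0.016 to 0.025 between them, with 0 to 1 members higher for hairpin 3 and over both. The cause was not tested.

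With the replicate number as a block, 4642 genes were called at 4 µM (4012), 10477 over the G9a hairpins (10058) and 13942 over the SUV39H1 hairpins (13658). The numbers were not taken to pair the libraries in the main fit. In their deviations from group means, 84 pairs of libraries with the same number correlated at -0.0931 to 0.228. Their median was 0.0417, against -0.0187 for pairs with different numbers. Of 24 libraries, 15 correlated best with their own number, so some likeness by number remained, and its source was not tested. OAS2, with 13 to 55 counts per group in the controls and G9a hairpins, is the member most limited by depth.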
